A study of Mus musculus with 12 samples.

Results

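Gr1+ cells sorted from GL261 gliomas were compared with Gr1+ cells sorted from the blood of mice bearing the same tumor, 1 Affymetrix Mouse Gene ST array for each. These are 2 of the 12 arrays of the series, and the comparison is the log2 signal on the glioma array minus that on the blood array for 19938 genes. Both arrays came from C57BL/6 mice aged 7 weeks, 2 weeks after GL261 cells had been placed in the brain, and the labels name no transgene or drug for either group. GL261 is a mouse glioma line, used here as a graft in an immunocompetent host, so the tumor is 1 cell line and not a spontaneous glioma. The other 10 arrays were Gr1- cells from the same glioma and blood sources, microglia (MG) and macrophages (MP) from glioma and normal brain, and 4 blood macrophage arrays, which the labels call high or low, of which 2 were from tumor-bearing mice and 2 from normal ones. Each condition had 1 array, so no difference given here has a replicate error or a p-value, and the number of arrays limits the precision. The number of mice behind an array is not given in the sources used here.

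The Gr1 antibody binds Ly6G, a protein of neutrophils, and Ly6C, which is abundant on inflammatory monocytes, so a Gr1+ sort can hold both cell types. Neutrophils circulate with granules full of antimicrobial proteins and follow CXC chemokines through their receptor CXCR2. Inflammatory monocytes follow CCL2 through CCR2, enter inflamed tissue or tumor and can mature there into macrophages, while Gr1+ myeloid cells that restrain T cells are often called myeloid-derived suppressor cells. Array signals of sorted populations are averages over the cells of the sort, so fewer cells of a type and less RNA per cell cannot be told apart.

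The array labelled blood went against its label in part. It held genes of brain cells: Mbp, the myelin basic protein of oligodendrocytes, was at 11.16 on the log2 scale on the blood Gr1+ array and 9.41 on the glioma Gr1+ array. On the 4 blood macrophage arrays Mbp lay between 6.86 and 8.96. Slc1a2, a glutamate transporter of astrocytes, was at 11.35 on the blood Gr1+ array and 9.70 on the glioma array. Sparcl1, an astrocyte matrix protein picked after its values were seen, was at 11.45 and 9.07, against 4.95 to 7.27 on the 4 blood macrophage arrays. Genes of tissue macrophages were present too: C1qa, a chain of complement C1q, was at 10.70, and Gatm, an enzyme of creatine synthesis, at 11.32 on the blood Gr1+ array, while Gatm lay between 5.12 and 7.46 on the 4 blood macrophage arrays. These 4 arrays were not alike. Tumor blood macrophage low and normal blood macrophage high had 12 and 11 of 12 NK cell markers above background. They had 2 and 1 of 20 macrophage differentiation genes above it, against 16 on tumor blood macrophage high and 14 on normal blood macrophage low. Gatm was at 7.46 and 7.24 on the latter 2. Over a list of 28 neuron, astrocyte and oligodendrocyte markers, 9 were above background on the blood Gr1+ array, 8 on the glioma Gr1+ array, 2 to 6 on the 4 blood macrophage arrays and 10 on normal MG. The log2 of their summed level was 14.11 on the blood Gr1+ array, 13.38 on the glioma Gr1+ array and 15.08 on normal MG, and between 12.97 and 13.89 on the 4 blood macrophage arrays. It was 14.11 on glioma MG and 14.16 on glioma MP, where 7 and 8 of the markers were above background. The 2 and the 13.89 both came from normal blood macrophage high. That array had a background of 10.09 and 2227 genes above it, against 6440 on blood Gr1+. The median level of the 28 markers was 8.74 there and 8.59 on blood Gr1+. The part of the brain cell markers in the differences below was not tested. Whether RNA of brain cells was mixed into the blood sample or labels were exchanged was not tested either, and in blood and in glioma mean below the array so labelled. The defining markers of the sort also gave an uneven picture: Ly6g was under background on both arrays (7.00 in glioma, 8.52 in blood), whereas Itgam, the gene of CD11b, was at 12.19 and 12.68, and Ly6c1 and Ly6c2 share probe sets and are not given here.

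**Figure D1:**
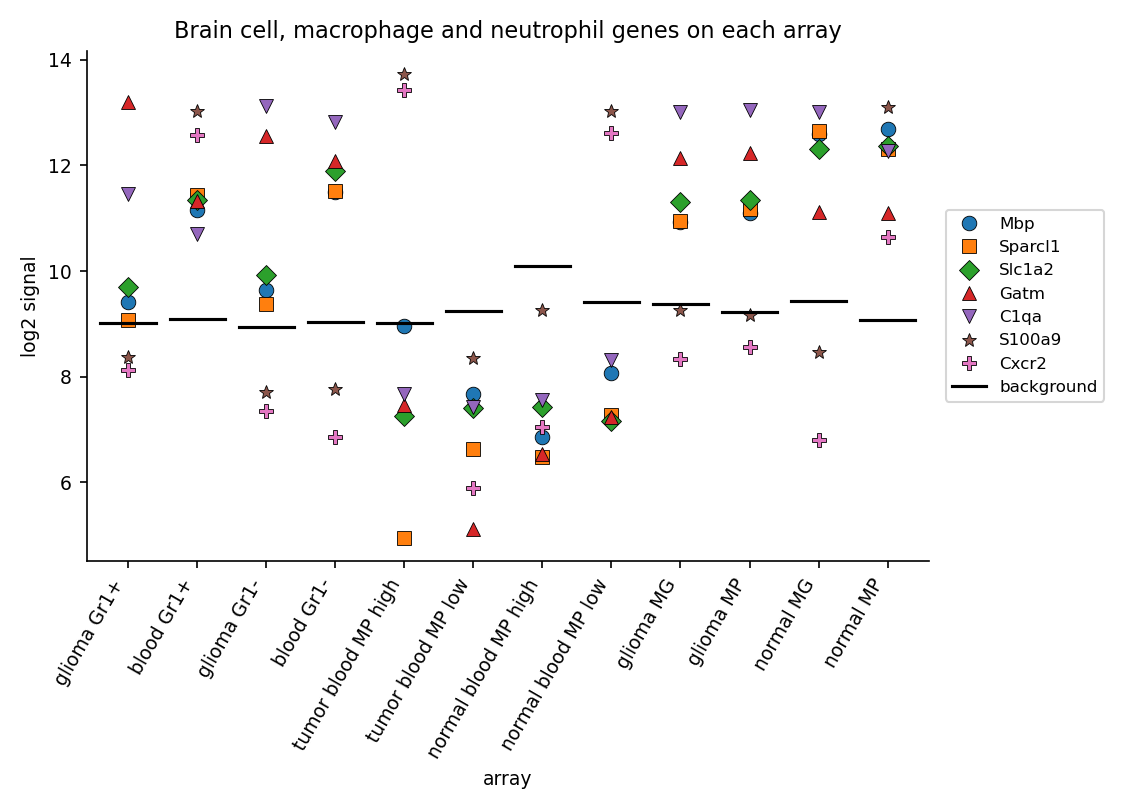
Log2 signal (vertical axis) of 7 genes across the 12 arrays (horizontal axis), and the background of each array as a short black line. Mbp, Sparcl1, Slc1a2, Gatm and C1qa lie above background on the array labelled blood Gr1+, as on the brain arrays, and under it on the 4 blood macrophage (MP high and low) arrays; S100a9 and Cxcr2 lie above background on the blood Gr1+ array and under it on the glioma Gr1+ array.

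Most genes were close to each other on both arrays. The correlation across all 19938 genes was 0.935, and the median difference was 0.01 on the log2 scale with an SD of 0.46. A background level was taken from 1027 olfactory receptor genes, which myeloid cells are not known to use. Their 95th percentile was 9.01 on the glioma and 9.09 on the blood array. Over the 7597 genes above background on at least 1 of the 2 arrays the correlation was 0.840. Between glioma Gr1+ and glioma MP it was 0.743 over genes chosen the same way and 0.908 over all genes. The differences of the olfactory receptor genes had an SD of 0.43, and 4.58% of them were at least 2-fold apart, which shows the size of difference that genes near background reach between 2 such arrays. Without regard to background, 204 genes (1.02%) were at least 2-fold higher in glioma and 592 (2.97%) lower. With the brighter array above background, which is what higher and lower mean for a gene from here on, 136 genes (0.682%) were higher and 232 (1.16%) lower. These shares of all genes stand beside the counts of list members between the Gr1+ arrays below. Of the 136 higher genes 77 were above background on both arrays. Of the 232 lower genes 163 were above it on the blood array alone, so their fold in glioma is only a bound, written as at least. With values raised to background, 92 genes were still at least 2-fold higher and 125 lower.

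The blood macrophage high array of tumor-bearing mice, which held few of the brain cell genes, was put in place of the blood Gr1+ array after the values were seen. Against it, 539 genes (2.70%) were higher and 849 (4.26%) lower on the glioma Gr1+ array. These included 41 of the 136 higher genes and 171 of the 232 lower genes.

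**Figure D2:**
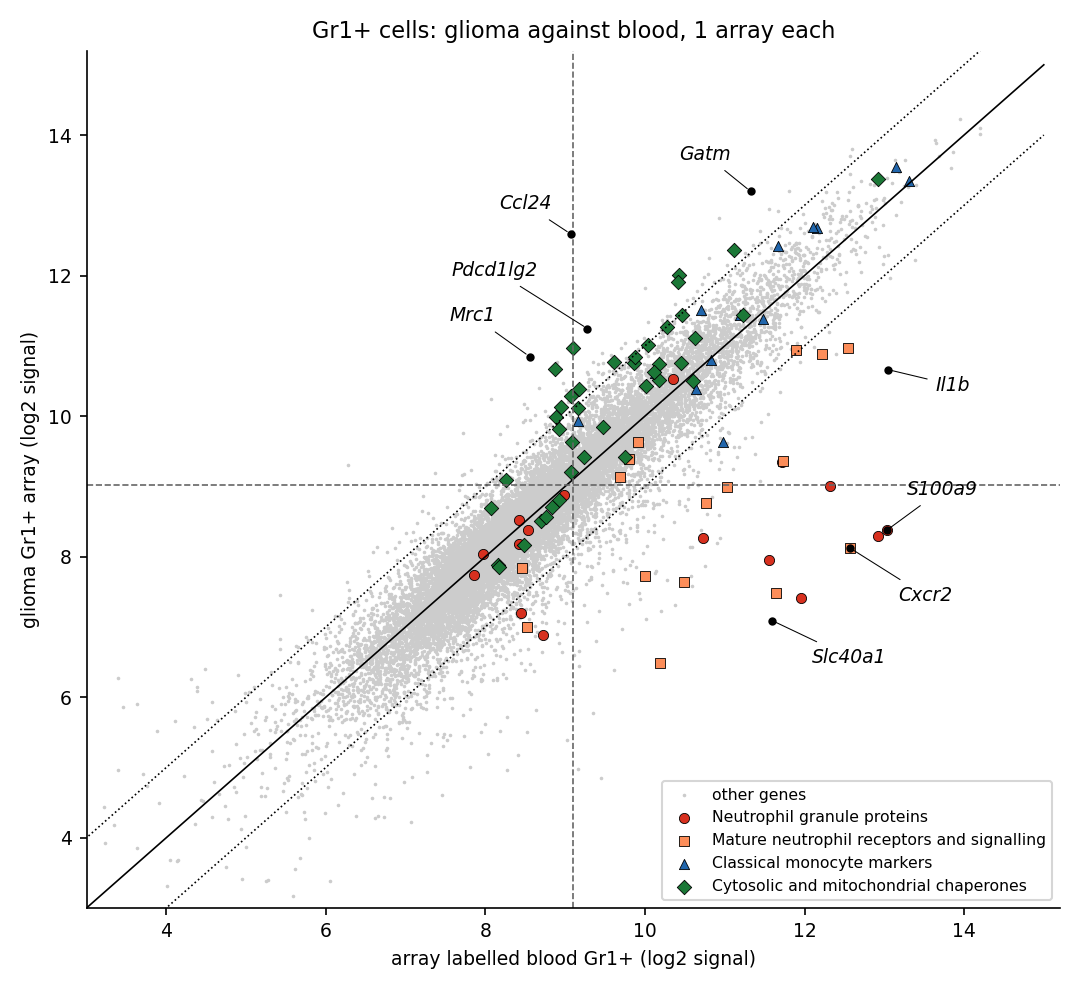
Log2 signal of each gene on the glioma Gr1+ array (vertical axis) against the array labelled blood Gr1+ (horizontal axis), 1 array each. The solid line marks equal signal, dotted lines 2-fold, and dashed lines the background at 9.01 and 9.09; neutrophil genes lie to the lower right, classical monocyte markers near the line of equal signal and most chaperones above it.

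Neutrophil genes were the clearest group on the blood side. Of 16 measured granule proteins 7 were lower in glioma and 0 higher, beside 1.16% and 0.682% of all genes. The median difference of the list was -1.55, against 0.01 over all genes. The median rests on how low values are treated: 8 members were above background on neither array, and it was -3.46 over the 8 others and -0.079 with values raised to background. S100a9, a subunit of the calcium-binding protein calprotectin that fills the neutrophil cytosol, was at 8.38 on the glioma array and 13.03 on the blood array. It was under background in glioma, and thus at least 16.2-fold lower there. Its partner subunit S100a8 was at 8.30 and 12.92, at least 14.97-fold lower. Mmp9, the gelatinase of neutrophil granules, was at 7.41 and 11.96, at least 7.69-fold lower. Lcn2, which binds bacterial iron carriers, was at 7.94 and 11.55, and Ngp, a granule protein of maturing neutrophils, at 9.01 and 12.32. Pglyrp1, a peptidoglycan-binding protein, was at 8.26 and 10.73. Mmp8, the neutrophil collagenase, was the exception in that it was above background on both arrays, at 9.35 and 11.71. All 7 of these genes thus stood above background on the blood array, and only Mmp8 did so on the glioma array. The enzymes of primary granules, which are made early in the bone marrow, were not part of this: Mpo was at 8.38 and 8.53 and Elane at 7.74 and 7.86, under background on both arrays. On blood macrophage high S100a9 was at 13.73, and against that array 7 granule proteins were again lower in glioma, beside 4.26% of all genes.

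The promoters of 30 of the 32 measured neutrophil list members are in RefSeq (GRCm38.p6), each as the 250 bases before and 50 bases after a start site. They were searched on both strands for the C/EBP-type motif TTGCNNAA, since C/EBP factors drive granule genes in maturing neutrophils. The motif was in 5 of 16 promoters of lower neutrophil genes (31.2%), 9 of the 30 searched and 12.2% of all 27025 genes with a promoter. A match describes the letters and not a bound site, and the motif was chosen after the values were seen. S100a9 and Ngp are shown as members of this group that hold it, with the match in capitals, 5′ to 3′ along the gene. S100a9 lies at chr3:90695672-90695971 on the minus strand, and Ngp, which has 2 matches, at chr9:110419558-110419857 on the plus strand.
S100a9: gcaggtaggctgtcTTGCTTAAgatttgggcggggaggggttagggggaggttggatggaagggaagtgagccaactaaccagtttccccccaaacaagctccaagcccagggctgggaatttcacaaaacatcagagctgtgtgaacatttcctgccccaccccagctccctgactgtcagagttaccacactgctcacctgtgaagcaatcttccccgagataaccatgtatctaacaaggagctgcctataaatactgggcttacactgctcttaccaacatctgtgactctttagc
Ngp: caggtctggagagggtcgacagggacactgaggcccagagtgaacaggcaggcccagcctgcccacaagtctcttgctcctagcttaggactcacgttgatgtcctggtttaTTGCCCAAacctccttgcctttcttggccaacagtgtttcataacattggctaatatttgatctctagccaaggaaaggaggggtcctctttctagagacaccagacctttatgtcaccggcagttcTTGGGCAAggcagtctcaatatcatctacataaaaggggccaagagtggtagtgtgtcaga

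Receptors and signalling genes of mature neutrophils followed the same direction. Of 16 measured members 10 were lower in glioma and 0 higher, beside 1.16% and 0.682% of all genes, with a median of -1.79. Cxcr2, the receptor through which neutrophils sense CXC chemokines, was at 8.12 in glioma and 12.58 in blood, at least 11.8-fold lower. Il1f9, an IL-36 cytokine, was at 7.48 and 11.65, and Il1r2, a decoy receptor for IL-1, at 6.48 and 10.19. Retnlg, a resistin-like protein, was at 7.63 and 10.49. Padi4, the enzyme that citrullinates histones in neutrophil traps, was at 7.72 and 10.00. Both arrays were above background for Clec4d, a C-type lectin receptor, at 9.36 and 11.73, and for Csf3r, the receptor for G-CSF, at 10.97 and 12.54. Csf3r was thus still well measured in glioma while Cxcr2 was not. Ly6g, at 7.00 and 8.52, could not be read on either array. On blood macrophage high Cxcr2 was at 13.43. In glioma 11 members were lower than there, beside 4.26% of all genes, and the median was -2.58.

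Classical monocyte markers were shared. All 13 measured members were above background on both arrays, their median difference was 0.41, and 1 was lower and 0 higher. Ccr2, the receptor for CCL2, was at 12.42 in glioma and 11.66 in blood. Plac8 was at 12.68 and 12.15, and Ms4a4c at 12.69 and 12.11. Chil3, a chitinase-like protein of monocytes and alternatively activated macrophages, was at 11.51 and 10.70. None of these 4 reached 2-fold. The lower member was Hp, haptoglobin, which neutrophils store as well, at 9.63 and 10.98. The same list had a median log2 signal of 7.94 on glioma Gr1- cells, against 11.44 on glioma Gr1+ and 11.19 on blood Gr1+ cells. Of 9 non-classical monocyte markers 0 were called either way, and the median was -0.12. When blood macrophage high was used instead, 8 of those 9 were lower in glioma, beside 4.26% of all genes.

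The genes farthest above blood in glioma were led by a chemokine. Ccl24, eotaxin-2, which draws eosinophils and is made by alternatively activated macrophages, was at 12.59 in glioma and 9.07 in blood, just under background there, and thus at least 11.3-fold higher. On the other 10 arrays Ccl24 lay between 7.13 and 9.56. Mrc1, the mannose receptor of alternatively activated and brain border macrophages, was at 10.85 and 8.55, at least 3.37-fold higher, but it was highest of all on normal MP, at 12.20. Pdcd1lg2, which encodes PD-L2, a ligand of the T cell checkpoint receptor PD-1, was at 11.24 and 9.28, 3.91-fold higher and above background on both arrays. Its other 10 values ran from 7.18 to 9.59. Gatm was at 13.20 and 11.32, 3.67-fold higher. It was also high on glioma Gr1- (12.56), blood Gr1- (12.09), glioma MG (12.15) and glioma MP (12.23). Between the Gr1- arrays it differed by 0.47 and was not called. All 4 genes were under background on blood macrophage high, so that only bounds can be given against it. There Ccl24 was at least 11.9-fold, Mrc1 at least 3.55-fold, Pdcd1lg2 at least 4.68-fold and Gatm at least 18.1-fold higher in glioma.

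Pdcd1lg2 is induced by IL-4 through STAT6, so the promoters were also searched for the STAT-type motif TTCNNNNGAA on both strands, a palindrome that was chosen after the values were seen. It was in 2 of 12 promoters of the 15 genes farthest up (16.7%), namely Pdcd1lg2 and Tmem26, in 2 of 10 promoters of the 15 genes farthest down, namely Il1f9 and Lcn2, and in 8.01% of all genes with a promoter. The Pdcd1lg2 promoter, chr19:29410669-29410968 on the plus strand, is shown with its match in capitals, since PD-L2 is the checkpoint ligand called higher. Ccl24 has no entry in the promoter table.
Pdcd1lg2: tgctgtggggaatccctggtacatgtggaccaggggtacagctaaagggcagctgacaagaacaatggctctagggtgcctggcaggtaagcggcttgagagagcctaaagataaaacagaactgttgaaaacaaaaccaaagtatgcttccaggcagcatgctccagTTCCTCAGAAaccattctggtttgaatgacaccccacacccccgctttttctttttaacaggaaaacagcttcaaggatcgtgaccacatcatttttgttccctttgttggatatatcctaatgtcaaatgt

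Apart from these, the 15 genes farthest up held transporters, adhesion molecules and receptors. Slc7a2, a transporter of arginine and other cationic amino acids, was at 10.77 in glioma and 8.90 in blood, at least 3.20-fold higher. Sdc4, the heparan sulfate proteoglycan syndecan-4, was at 12.82 and 10.93, 3.70-fold higher, and Flt1, a receptor for VEGF-A, was at 11.83 and 10.00, 3.56-fold higher. Sdc4 and Flt1 had their highest signal of the 12 arrays on glioma Gr1+ cells. Cdh1, E-cadherin, was at 10.24 and 8.07, and at least 2.21-fold higher. Slc30a4, a zinc exporter, was at 9.30 and 6.28, and because both values lie near or under background the bound is 1.16-fold. Erap1, which trims peptides for MHC class I, was at 10.40 and 8.67, and Hfe, a regulator of iron uptake, at 10.18 and 8.49. Prps1, an enzyme of nucleotide synthesis, was at 9.76 and 7.72, and Tmem26, a membrane protein, at 9.19 and 7.37. These genes were under background in blood. Erap1 was thus at least 2.47-fold, Hfe at least 2.12-fold, Prps1 at least 1.59-fold and Tmem26 at least 1.07-fold higher. Against blood macrophage high Tmem26 differed by -0.062.

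**Figure D3:**
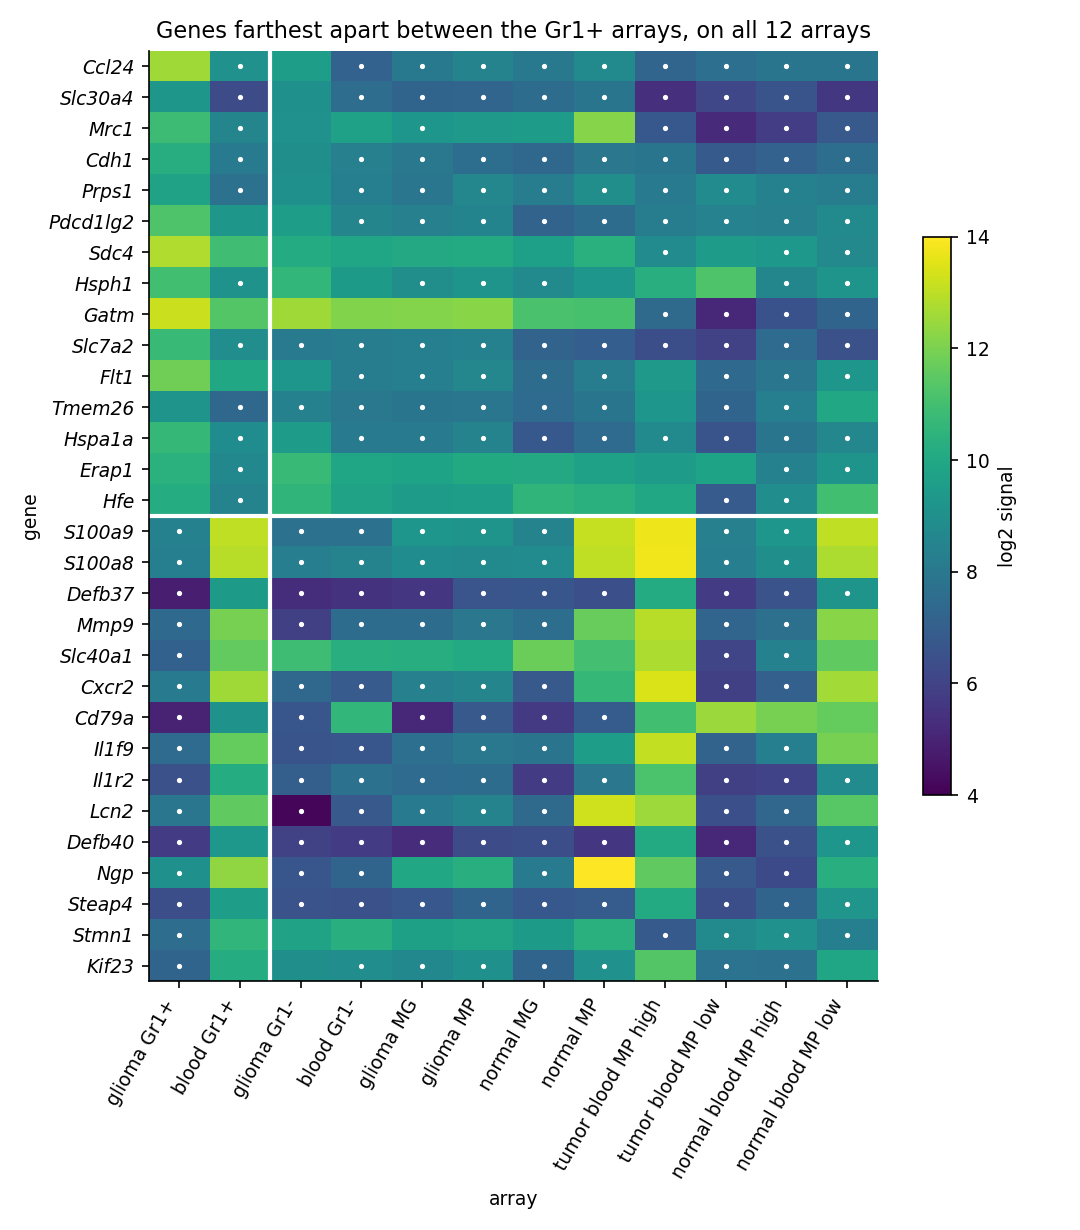
Log2 signal (color) of the 15 genes farthest up (top) and the 15 farthest down (bottom) in glioma Gr1+ against blood Gr1+ cells (rows), on all 12 arrays (columns); a white dot marks a value under that array's background. S100a9, S100a8, Mmp9 and Lcn2 are bright on the blood Gr1+, normal MP, tumor blood MP high and normal blood MP low arrays, and Ccl24, Sdc4, Slc7a2 and Flt1 are brightest on glioma Gr1+.

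Heat shock proteins and folding enzymes stood out among the higher genes, and 2 lists of them were drawn up after their values had been seen, so their counts describe the arrays and support nothing further. Of 40 cytosolic and mitochondrial chaperones 10 were higher and 0 lower, with a median of 0.56. Hsph1, a nucleotide exchange factor of the HSP110 family, was at 10.97 in glioma and 9.09 in blood. Hspa1a, the inducible HSP70, was at 10.67 and 8.88, at least 2.98-fold higher. Both were under background in blood. Dnaja1, an HSP40 co-chaperone, was at 12.005 and 10.43, and Ptges3, the HSP90 co-chaperone p23, at 11.90 and 10.41. Hsp90aa1, an HSP90, was at 12.36 and 11.11, and Chordc1, which binds HSP90, at 10.39 and 9.17. Of 44 endoplasmic reticulum folding genes 16 were higher and 0 lower, with a median of 0.83. Among them Hspa5, the ER chaperone BiP, was at 12.64 and 11.44, Creld2, an ER stress protein, at 10.97 and 9.70, and Stt3b, a catalytic subunit of the N-glycosylation complex, at 10.52 and 9.30. Xbp1 and Atf6, which regulate these genes, were less than 2-fold apart, with differences of 0.25 and -0.18. The counts were smaller against blood macrophage high, 3 of 40 and 9 of 44 higher. The share of all genes higher was 2.70% against that array and 0.682% against blood Gr1+. Hsph1 itself was at 10.29 there, which brings its difference to 0.68. The immediate early and stress genes, a list of 23 in which Hspa1a and Hsp90aa1 were the 2 higher members, also had 2 lower members, the transcription factors Klf2 (9.69 in glioma, 10.94 in blood) and Junb (9.80 and 10.94), and a median of -0.05. Against blood macrophage high 11 of those 23 were lower, beside 4.26% of all genes.

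The heat shock element, searched as GAANNTTCNNGAA on both strands, was in 2 of 8 promoters of the higher chaperones (25.0%), in 5 of 35 promoters of measured chaperones (14.3%) and in 0.662% of all genes with a promoter. The chaperone list was drawn up after its values were seen, so these shares describe the promoters and support nothing further. Hsph1 and Chordc1 are the 2 higher members that hold the element and are printed for that reason. The Hsph1 window is chr5:149636287-149636586 on the minus strand, and the Chordc1 window, with 3 overlapping matches, is chr9:18292017-18292316 on the plus strand.
Hsph1: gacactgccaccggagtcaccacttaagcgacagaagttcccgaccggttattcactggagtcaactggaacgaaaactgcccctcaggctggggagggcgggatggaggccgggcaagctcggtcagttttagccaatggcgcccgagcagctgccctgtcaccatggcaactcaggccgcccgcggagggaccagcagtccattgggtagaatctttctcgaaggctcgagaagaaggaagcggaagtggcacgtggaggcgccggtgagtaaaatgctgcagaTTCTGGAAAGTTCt
Chordc1: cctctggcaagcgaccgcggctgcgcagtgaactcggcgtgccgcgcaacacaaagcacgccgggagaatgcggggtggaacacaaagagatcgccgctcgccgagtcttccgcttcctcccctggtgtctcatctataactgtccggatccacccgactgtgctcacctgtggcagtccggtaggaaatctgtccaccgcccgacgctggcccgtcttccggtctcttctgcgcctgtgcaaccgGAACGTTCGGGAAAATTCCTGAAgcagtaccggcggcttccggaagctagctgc

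Genes of alternative activation and checkpoint ligands moved as single genes more than as lists. Of 17 alternative activation genes 2, Ccl24 and Mrc1, were higher and 0 lower, and the median was 0.33. Since 8 members were above background on neither array, the median was -0.010 with values raised to background, and it was 0.19 with probe sets of a gene averaged. Fcgr2b, the inhibitory Fc receptor, was at 12.67 in glioma and 11.95 in blood, and Tgm2, a transglutaminase, at 13.27 and 12.61. Retnla and Cd163 were under background on both arrays, with differences of 0.18 and -0.04. Of 18 checkpoint ligands and suppressive factors 1 was higher, Pdcd1lg2, and 1 lower, Cd80, a costimulatory ligand for CD28 and CTLA-4, at 8.54 and 9.89. Their median was -0.0045. Cd274, which encodes PD-L1, differed by 0.13, Tgfb1 by 0.42 and Il10, under background on both arrays, by 0.06. Against blood macrophage high 6 of 17 and 7 of 18 members were higher, beside 2.70% of all genes.

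Inflammatory signalling genes held 4 lower members and 1 higher one out of 20, beside 1.16% and 0.682% of all genes, with a median of -0.07. Il1b, the cytokine IL-1β, was at 10.66 in glioma and 13.04 in blood, 5.20-fold lower and above background on both arrays. Its difference from blood macrophage high was -2.45. Nlrp3, the inflammasome sensor, was at 9.63 and 10.79, and Ptgs2, cyclooxygenase-2, at 8.72 and 10.50, under background in glioma. Casp1, the inflammasome protease, went the other way, at 11.07 and 10.02. Il1r2 was the remaining lower member, and Il1rn, the IL-1 receptor antagonist, was at 12.08 and 11.99. Of 16 classical activation genes 3 were lower and 0 higher, with a median of -0.19. Nos2, inducible nitric oxide synthase, was at 8.67 and 9.54 and did not reach 2-fold.

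Chemokines were called as single genes. Of 12 CC chemokines 2 (16.7%) were higher, beside 0.682% of all genes, 0 were lower, and the median was 0.49. The higher ones were Ccl24 and Ccl9, a myeloid chemokine at 12.91 in glioma and 11.67 in blood. Ccl2, the ligand of CCR2, was at 10.88 and 10.29. Of 13 CXC chemokines 1 (7.69%) was lower, beside 1.16% of all genes, and 0 higher, with a median of -0.39. The lower one was Cxcl2, a ligand of CXCR2, at 8.19 and 10.91 and so under background in glioma. Cxcl10, which draws T cells, was at 12.85 and 12.52. Of 12 chemokine receptors Cxcr2 alone was called, lower, and the median was -0.07. Ccr2 differed by 0.76, Cxcr4 by -0.28 and Ccr1 by -0.26.

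Macrophage genes were present on both arrays and mostly within 2-fold. Of 20 macrophage differentiation genes 1 was higher, 2 were lower and the median was 0.31. Irf4, a transcription factor of alternatively activated macrophages, was at 9.23 in glioma and 7.82 in blood. The lower members were Cd14, a co-receptor for lipopolysaccharide, at 9.49 and 10.91, and Spi1, the myeloid transcription factor PU.1, at 11.20 and 12.31. Mertk, a receptor for the uptake of dying cells, was at 10.46 and 9.72. Of 13 complement genes and 9 MHC class II genes 0 were called, with medians of 0.29 and 0.55. C1qa was at 11.47 and 10.70, and H2-Ab1, a class II chain, at 12.89 and 12.26. All 21 interferon-stimulated genes were above background on both arrays, 0 were called and their median was 0.16. Against blood macrophage high 18 of the same 21 were higher in glioma, with a median of 1.94, and 5 of 9 MHC class II genes were higher. Of 13 complement genes 5 were higher and 2 lower against it, and of the 20 lipid handling genes given below 8 and 2. Of all genes 2.70% were higher against that array. For these lists the choice of blood array thus decided what was seen. Of 20 lipid handling genes 1 was higher, the fatty acid binding protein Fabp5 (10.35 and 9.14), and 1 lower, the tetraspanin Cd9 (10.11 and 11.17), with a median of 0.21.

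**Figure D4:**
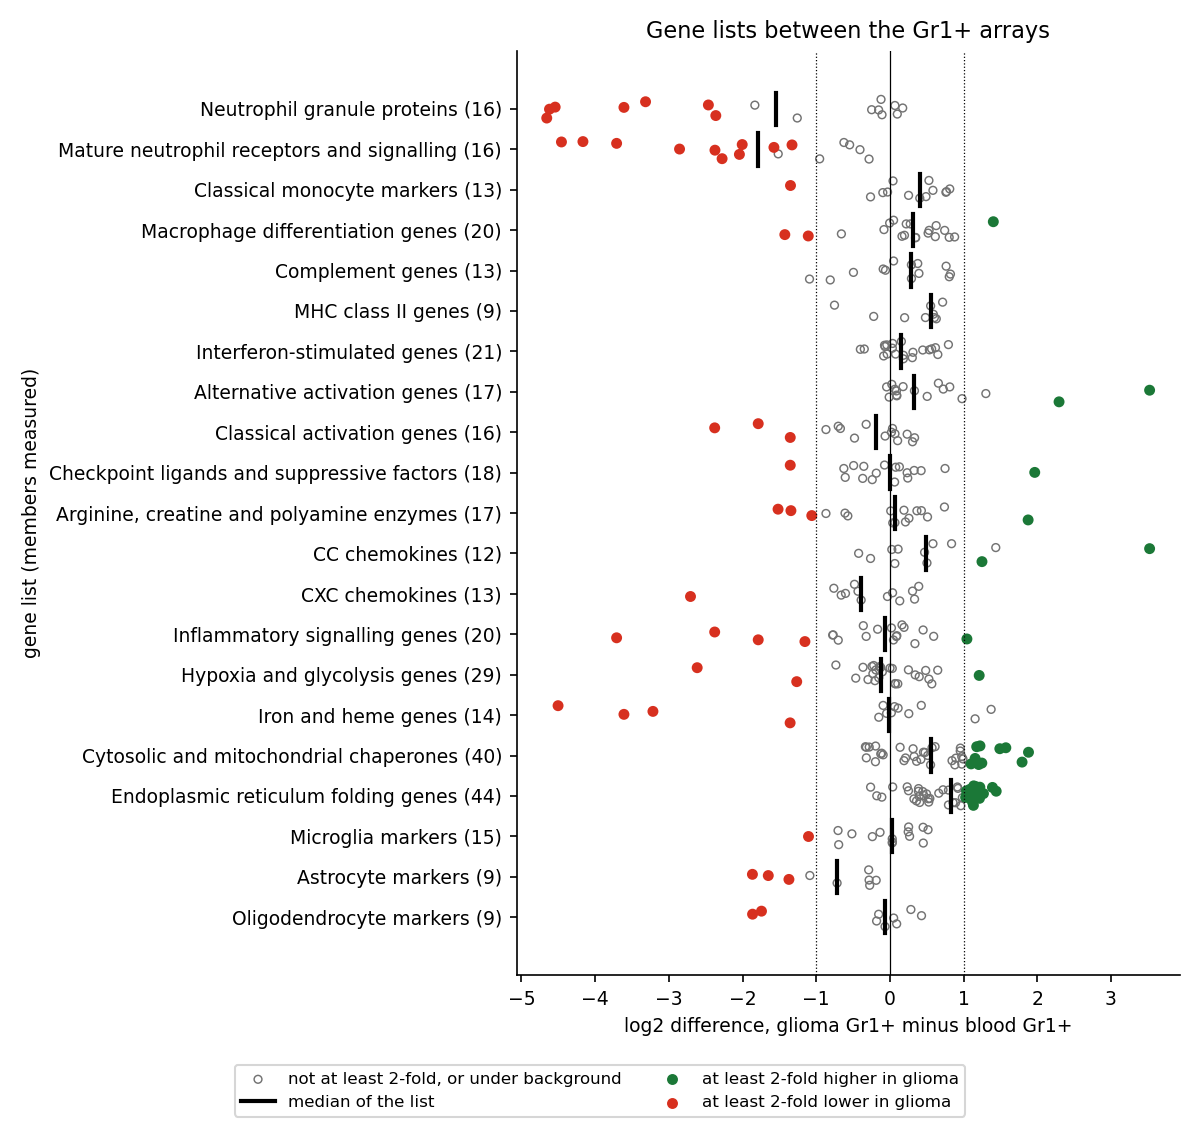
Difference in log2 signal, glioma Gr1+ minus blood Gr1+ (horizontal axis), of each measured member of 21 gene lists (vertical axis). Filled points are at least 2-fold apart with the brighter array above background, green for higher and red for lower in glioma; thick bars are medians, -1.55 and -1.79 for the neutrophil lists, 0.41 for classical monocyte markers and 0.83 for endoplasmic reticulum folding genes.

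Genes of arginine, creatine and polyamine metabolism went both ways. Of 17 measured members Gatm was higher and 3 were lower, beside 0.682% and 1.16% of all genes, with a median of 0.07. Arg2, the mitochondrial arginase, was at 8.24 in glioma and 9.76 in blood. Ddah1, which breaks down methylarginine inhibitors of nitric oxide synthase, was at 7.78 and 9.13, and Ckb, the brain creatine kinase, at 8.94 and 10.00. These 3 were under background in glioma, and Ddah1 and Ckb were under it on blood macrophage high as well, so they could not be compared with that array. Odc1, the first enzyme of polyamine synthesis, differed by 0.01. Of 12 amino acid transporters Slc7a2 was higher and the cystine transporter Slc7a11 lower (8.69 and 10.10), with a median of 0.23.

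Iron, hypoxia and growth factor genes followed no common direction between the Gr1+ arrays. Slc40a1, ferroportin, the iron exporter, was at 7.09 in glioma and 11.59 in blood, at least 5.98-fold lower, although it was above background on glioma Gr1- cells, glioma MG and glioma MP (10.12 to 10.90). Of 14 iron and heme genes 4 were lower and 0 higher, beside 1.16% and 0.682% of all genes. The other 3 were Lcn2, Hp and Steap4, a metalloreductase, at 6.39 and 9.61, and the median was -0.01. Of 29 hypoxia and glycolysis genes 1 was higher and 2 were lower, with a median of -0.12. Pgk1, a glycolytic kinase, was at 13.80 and 12.59, 2.32-fold higher, and Slc2a3, the glucose transporter GLUT3, at 7.66 and 10.28, at least 2.40-fold lower. Vegfa, the endothelial growth factor, was at 9.77 and 11.04, 2.40-fold lower, but it was at least 1.69-fold higher in glioma than on blood macrophage high, where it was under background. Of 19 angiogenic and growth factors 2 were higher, Flt1 and Igf1 (9.75 and 8.19), and 2 lower, Vegfa and the macrophage growth factor Csf1 (9.76 and 11.05), with a median of 0.12. Against blood macrophage high 12 of the 29 hypoxia and glycolysis genes were higher and 2 lower, with a median of 0.65. Of the 19 growth factors 5 were higher and 2 lower there, and of the 14 iron and heme genes 0 and 5. Of all genes 2.70% were higher and 4.26% lower against that array.

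Among 20 matrix and protease genes 4 were lower and 0 higher, beside 1.16% and 0.682% of all genes, with a median of -0.05. They were Mmp9 and Mmp8, Plaur, the urokinase receptor, at 10.40 in glioma and 11.47 in blood, and Sparc, a matrix protein of microglia and other cells, at 8.79 and 9.91. Of 19 adhesion genes 2 were higher, Pecam1 (9.95 and 8.56) and the integrin chain Itgb1 (11.42 and 10.31), 1 was lower, Jaml, a neutrophil and monocyte adhesion molecule (8.74 and 9.97), and the median was -0.07.

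Many markers of other cells the sort could hold were under background. Of 9 astrocyte markers 3 were lower in glioma, beside 1.16% of all genes. They were Clu (7.60 and 9.46), Slc1a2 and Aldoc (9.24 and 10.61), and the median was -0.72. Clu was under background in glioma, and thus at least 1.37-fold lower. Of 9 oligodendrocyte markers 2 were lower, Mobp (8.66 and 10.53) and Mbp, with a median of -0.07. All of these 5 were under background on blood macrophage high, so none could be called lower against that array. Of 10 neuron markers 0 were called (median -0.22), and of 15 microglia markers Sparc alone was lower (median 0.03). Tmem119, a defining microglia marker, was at 9.40 and 9.37, and P2ry12, another, was under background on both arrays. Tgfbr1 was at 10.78 and 10.33 and P2ry13 at 9.60 and 10.11. On each Gr1+ array 7 of the 15 microglia markers were above background. Tumor blood macrophage high had 3 of them above it, and the other blood macrophage arrays 0 to 2. Of 10 brain border macrophage markers Mrc1 was higher, and the median was 0.05. The B cell receptor chain Cd79a, at 4.98 and 9.16, was the single B cell marker of 8 above background, on the blood array alone, and Alas2, a heme synthesis enzyme of red cells, at 7.40 and 9.94, was the single one of 5 red cell markers. Those lists had medians of -0.67 and -0.75. None of 12 NK cell, 10 T cell, 11 dendritic cell or 7 platelet markers was called, with medians of -0.02, -0.02, 0.13 and -0.34. Of 10 endothelial markers Flt1 and Pecam1, both also used by myeloid cells, were higher, while Cldn5, a tight junction gene of brain endothelium, was at 9.63 and 9.71, and the median was 0.06. Of 19 cell division genes Stmn1, a microtubule regulator, was lower, at 7.58 and 10.59, and the median was -0.39, with 2 members above background on glioma and 5 on blood. Stmn1 was under background on blood macrophage high too, at 6.85.

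The Gr1- cells of glioma and blood gave a second comparison that shares no array with the first. Its blood array went against its label further: all 15 microglia markers were above background on the array labelled blood Gr1-, with a median of 11.19 against 11.45 on glioma Gr1- cells. On tumor blood macrophage high 3 were above background and on normal blood macrophage low 2. On tumor blood macrophage low and normal blood macrophage high, where most NK cell markers were above background, 1 and 0 were. The Gr1- pair cannot be read as a plain glioma against blood comparison. There 58 genes (0.291%) were higher in glioma and 114 (0.572%) lower. The higher lists shared 12 genes, which are 8.82% of the Gr1+ and 20.7% of the Gr1- list. The lower lists shared 33, which are 14.2% and 28.9%. Hsph1 and Dnaja1 were higher in both and above background on both Gr1- arrays, where they differed by 1.19 and 1.12. Ccl24, Pdcd1lg2, Hspa1a, Flt1 and Igf1 met the rule in both, but their blood Gr1- values were under background, so the bounds there are low. Ccl24 was at 9.56 on glioma Gr1- and 7.13 on blood Gr1- cells, at least 1.44-fold higher, and Pdcd1lg2 was at 9.59 and 8.55, at least 1.48-fold higher. Mrc1 was at 9.07 and 9.72 on the Gr1- arrays and was not called there. Mbp, Mobp, Clu, Aldoc, Slc1a2 and Cd79a were among the genes lower in both, and the blood Gr1- array held Mbp at 11.49 and Slc1a2 at 11.90, so the brain cell genes marked both arrays labelled blood Gr1. The neutrophil genes S100a9 and Cxcr2 were under background on both Gr1- arrays, S100a9 at 7.72 in glioma and 7.76 in blood and Cxcr2 at 7.35 and 6.85, and could not be compared there. The classical monocyte list, with a median of 0.41 between the Gr1+ arrays, had a median of -1.20 between the Gr1- arrays. Of its 13 members 5 were above background on glioma Gr1- and 7 on blood Gr1- cells.

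**Figure D5:**
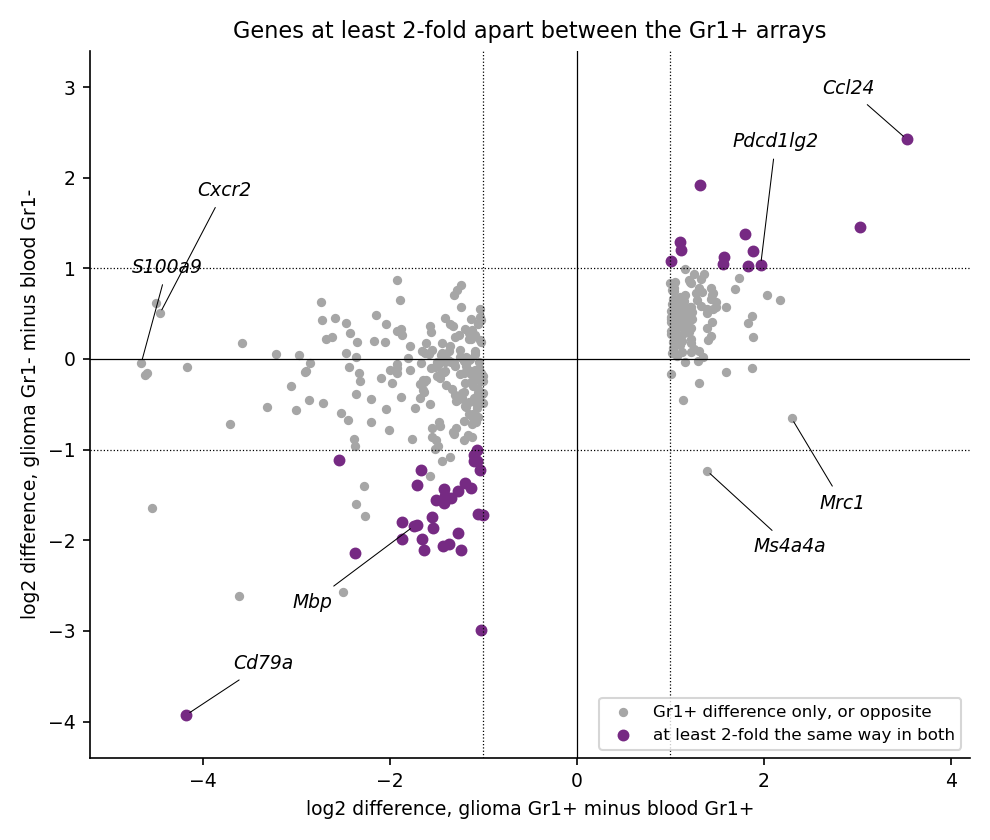
Difference in log2 signal, glioma minus blood, between the Gr1- arrays (vertical axis) against that between the Gr1+ arrays (horizontal axis), for the genes at least 2-fold apart between the Gr1+ arrays. The 45 purple genes, 12 higher and 33 lower, are at least 2-fold apart the same way in both comparisons; values are differences as measured, also where an array is under background, as both Gr1- arrays are for S100a9 and Cxcr2, and dotted lines mark 2-fold.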

How the data were processed

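RNA of FACS-sorted cells was amplified by the authors in 2 cycles and hybridized to Affymetrix Mouse Gene ST arrays, and the submitters' processing notes name RMA. The deposited values are log2 signals per probe set, processed by the authors and given as log2 of a linear signal that starts at 1 and moves in steps of 0.01. The genome build and annotation release are not given in the sources used here. Of 28944 probe sets 21789 carried 1 gene symbol in GEO's platform annotation, while 1621 with several symbols and 5534 with none were not used. For 999 genes with more than 1 probe set the brightest one was kept, judged by its mean over the arrays, and 19938 genes remained. Values were used as deposited.

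The comparison is the difference of 2 arrays with no test. The authors' methods name adjusted p-values for genes differing between these arrays, and no p-value was computed here, since 1 array per condition gives no spread. Background on each array was the 95th percentile of 1027 olfactory receptor genes. A gene was called higher or lower when it was at least 2-fold apart and its brighter array was above background. Where the dimmer array was under background, the fold was computed against that array's background and written as at least. The spread of the olfactory receptor genes is a yardstick of noise, not a replicate error, and the spread between the 2 brightest probe sets of 431 genes had an SD of 0.32.

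The members and lists were chosen with earlier results of these data known. The 37 lists fixed first hold 579 members, 533 of them measured, and 2 lists of chaperones were added after values were seen. Genes were named by a rule that took Mrc1, Pdcd1lg2, S100a9, Cxcr2 and Gatm, the 15 genes farthest apart each way with the brighter array above background, leaving out predicted, small RNA and olfactory genes, and up to 6 members of each list with the largest differences; a few list members outside this rule are given as examples chosen after their values were seen. One gene that the study discusses was left out. As alternatives, the arrays were median centred, quantile normalized or normalized by cyclic loess, probe sets of a gene were averaged, and runs were made with a floor at background, other fold and background thresholds and, added after seeing the data, the tumor blood macrophage high array in place of the blood Gr1+ array. Promoters are from RefSeq on GRCm38.p6, 32851 windows of 27025 genes. The computation was tested on simulated data. Computations ran in Python 3.11.15 (numpy 2.4.6, pandas 2.3.3, matplotlib 3.10.9) and R 4.3.3 (limma 3.58.1).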

Additional observations from a re-analysis of the deposited data

Results flagged for a closer look

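Ms4a4a, a membrane protein of the MS4A family found in macrophages, was the single gene called in opposite directions in the Gr1+ and the Gr1- comparison. It was 1.39 higher on the log2 scale in glioma than in blood between the Gr1+ arrays (12.95 and 11.56) and lower by -1.23 between the Gr1- arrays (9.73 and 10.96). The difference between these 2 comparisons was not tested, since each rests on 1 array per side.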

How the results depend on the processing

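No paired analysis was possible because each condition has 1 array, and for the same reason no replicate could be left out. Against 136 higher and 232 lower genes, a 1.5-fold threshold gave 727 and 583 and a 4-fold threshold 5 and 55; without the background rule the main counts of 204 and 592 became 1116 and 1677, and 11 and 97. A floor at background gave 92 higher and 125 lower genes (92 and 125 also without the background rule), and only genes above background gave 232 lower genes without that rule. Centring on the median, quantile or cyclic loess scaling, averaged probe sets and a 90th percentile background kept all 4 counts within 1.5 times. Rescaling kept the median of all genes between 0.01 and 0.06. The 183 named genes moved by no more than the SD of the olfactory receptor genes under the 3 scalings, and 38 moved further under the floor, none changing sign among the called genes. The median of the granule list was -0.079 with the floor and -3.46 over its 8 genes above background, that of the mature neutrophil list -1.25 and -2.02, and that of alternative activation genes -0.010 and 0.66, or 0.19 with the mean of probe sets. Quantile normalization put the classical monocyte median at 0.20. With tumor blood macrophage high as the blood array, chosen after seeing the data, the counts were 539 and 849 (884 and 1060 without the background rule), and the 4 medians were -1.07, -2.58, 0.67 (classical monocyte) and 0.72 (alternative activation). With it the measured difference of 11 called genes changed sign, of which 5 (Stmn1, Sparc, Mobp, Ddah1 and Ckb) were under background on both arrays and have no readable direction, and 4 (Slc1a2, Aldoc, Mbp and Vegfa) were under it on blood macrophage high, so that their value is no exact fold. The values were Tmem26 (-0.062), Stmn1 (0.74), Sparc (1.32), Slc1a2 (2.45), Aldoc (1.55), Mobp (2.14), Mbp (0.46), Ddah1 (1.75), Ckb (0.25), Vegfa (1.35) and Itgb1 (-0.16). The cause was not tested. Genes with signal near background limit the comparison, since 7597 of 19938 genes were above it on at least 1 of the 2 arrays.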
